A study of Mus musculus with 2 samples.

Results

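The genes described here carry the interleukin-6 signal in liver. They are 10 genes taken by symbol from the count rows of both libraries: the receptor genes Il6ra, Il6st and Lifr, the kinase genes Jak1 and Jak2, the transcription factor gene Stat3, the feedback genes Socs1, Socs3 and Socs5, and the target gene Steap4. All 10 were found among 52636 gene rows, and all 10 had at least 20 counts over both libraries, as did 14433 genes in all.

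The study asked what loss of the RNA methyltransferase METTL3 in hepatocytes does to the liver transcriptome. Livers came from C57BL/6 mice aged 8 weeks on normal chow. One library, labelled flox, was made from Mettl3 flox/flox animals. The other, labelled HKO, was made from Mettl3 flox/flox animals that also carried Alb-Cre+/-, in which the albumin promoter drives Cre in hepatocytes and other liver cells keep the gene. Both groups carry the floxed alleles, and only one carries Cre. Material of 4 mice was pooled for each library, so each genotype is represented by 1 measurement. No difference between the libraries has a replicate check, none can be assigned to genotype, and no test between genotypes was possible.

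Interleukin-6 binds the receptor chain encoded by Il6ra, and the complex recruits gp130, the shared signal chain encoded by Il6st. Janus kinases bound to gp130 then phosphorylate STAT3, which moves to the nucleus and switches on acute phase genes in hepatocytes. Among its targets is Socs3, whose product binds gp130 and the kinases and shuts the signal down. In mouse T cells, METTL3 is known to mark transcripts of several Socs genes for decay.

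STAT proteins recognise the palindromic word TTCNNNGAA. Promoter windows of RefSeq genes on GRCm38.p6, running from 250 bases before the transcript start to 50 bases after it, were searched for that word, which reads the same on both strands. Of 10 windows for 9 of the 10 genes, 2 held a match, against 8.30% of all 32851 windows. The windows were those of Socs3 and Steap4, shown here because these genes stood on opposite sides of equality in the counts. Capitals mark the match, which begins 154 bases before the start of Socs3 (chr11:117969317-117969616, minus strand) and 116 bases before the start of Steap4 (chr5:7960222-7960521, plus strand).
Socs3: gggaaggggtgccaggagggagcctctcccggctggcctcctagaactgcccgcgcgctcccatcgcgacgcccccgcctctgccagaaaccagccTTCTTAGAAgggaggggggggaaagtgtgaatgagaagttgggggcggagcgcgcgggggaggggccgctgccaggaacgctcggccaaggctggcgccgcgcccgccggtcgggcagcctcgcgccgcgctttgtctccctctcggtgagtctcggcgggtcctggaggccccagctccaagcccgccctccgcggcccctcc
Steap4: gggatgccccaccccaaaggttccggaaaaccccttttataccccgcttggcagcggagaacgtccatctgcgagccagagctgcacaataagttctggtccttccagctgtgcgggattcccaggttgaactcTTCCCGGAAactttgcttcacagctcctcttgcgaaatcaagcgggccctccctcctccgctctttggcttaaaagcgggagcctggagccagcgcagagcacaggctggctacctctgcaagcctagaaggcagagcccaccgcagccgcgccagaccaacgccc
The match is a description of the sequence and not evidence that a factor binds there. Windows without the word say nothing about sites elsewhere.

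The libraries held 21457504 and 18438807 counts for flox and HKO. Each ratio sets HKO over flox after TMM scaling, a method that aligns the bulk of genes. The 95% interval of a ratio is an exact binomial interval and covers counting error only. Mettl3, the targeted gene, had 156 counts for flox and 220 for HKO, so its level was higher and not lower where Cre is labelled (1.36-fold, 1.11 to 1.69). This goes against the label, and the libraries are therefore called by their labels throughout. The count covers the whole gene, of which only part is floxed, so it cannot show whether that part was lost. Another annotated gene holds 18.4% of the exonic bases of Mettl3. The paper reported strongly reduced METTL3 protein in HKO livers, which these counts do not measure. All 8 hepatocyte marker genes were present at 646 or more CPM after TMM scaling in both libraries, where CPM is the count scaled to a fixed library sum.

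None of the 10 genes differed 2-fold or more between the libraries. The background was 828 genes past that limit on the high side in the library labelled HKO (5.74% of all tested genes) and 672 on the low side (4.66%). Scaling by total counts makes these 1504 and 409. At a limit of 1.5-fold with an interval leaving out equality, Socs5 was higher and Il6ra, Lifr and Socs3 were lower. That is 1 of 10 higher against 13.0% of all genes, and 3 of 10 lower against 10.3%. These counts hold for TMM scaling only. With total counts the log2 ratios of Il6ra (−0.49), Lifr (−0.56) and Socs3 (−0.57) fall short of 1.5-fold. Socs5 (1.04) and Steap4 (0.81) are then past it on the high side. The shares of all genes at 1.5-fold were not computed with total counts. The interval lay above equality for 4 genes (28.3% of all genes) and below it for 5 (27.7%), and it included equality for Socs1. The median log2 ratio of the 10 genes was 0.0035, and that of all tested genes was 0.0097.

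**Figure D1:**
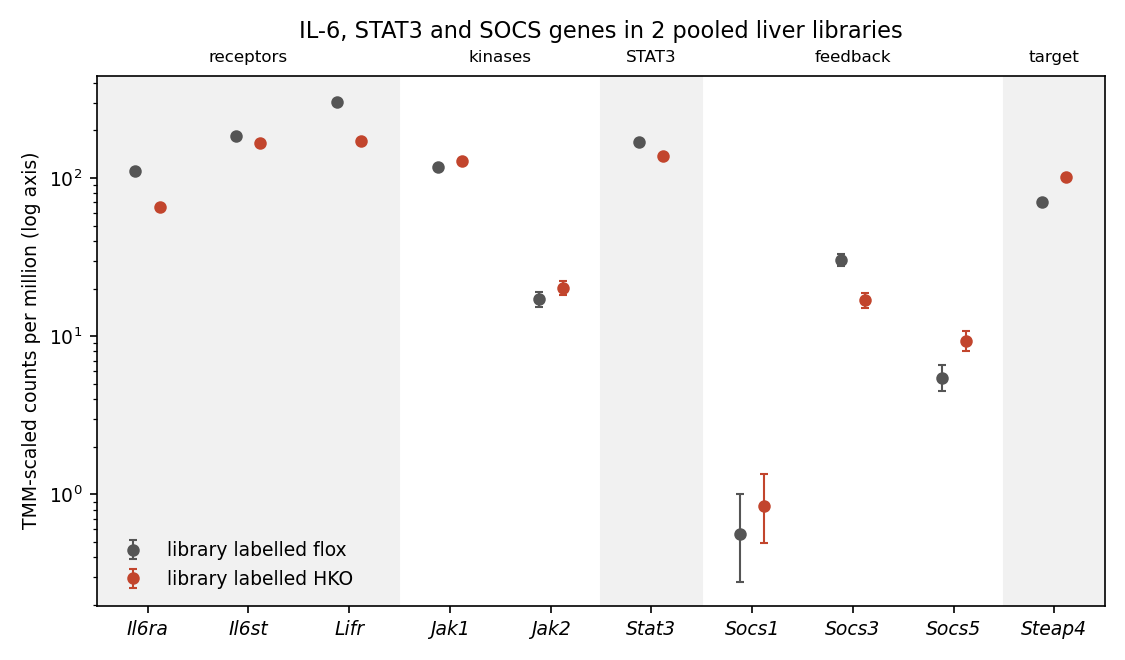
TMM-scaled CPM (log axis) of the 10 genes in the library labelled flox (grey) and the library labelled HKO (red), grouped by role. Points are single pooled libraries and bars are 95% Poisson counting intervals. Lifr, Il6ra and Socs3 stand clearly lower in the HKO library, and Socs5 and Steap4 higher.

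Depth matters when these shares are read. The 6 genes Il6ra, Il6st, Lifr, Jak1, Stat3 and Steap4 had at least 3000 counts in sum, as did 2016 genes in all. In that class 60.9% of all genes had an interval below equality and 26.4% above, so abundant liver transcripts were mostly lower in the library labelled HKO. The share at least 1.5-fold lower was 16.7% in the same class. Against this, 4 of the 6 genes were below equality and 2 above.

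Among the receptor genes, Lifr and Il6ra were lower in the library labelled HKO. Lifr, which encodes the receptor chain for leukaemia inhibitory factor and pairs with gp130, had 5951 counts for flox and 3458 for HKO, or 304.2 and 171 TMM-scaled CPM. It was 1.78-fold lower (1.71 to 1.86). Il6ra, the chain that gives cells their affinity for interleukin-6, had 2163 and 1321 counts, or 111 and 65.3 CPM. It was 1.69-fold lower (1.58 to 1.81). Both ratios lay far down among the tested genes, with 7.16% of genes below Lifr and 8.34% below Il6ra.

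Il6st, the chain that cytokines of this family share, differed little. It had 3587 counts for flox and 3387 for HKO, or 183 and 167 CPM, and was 1.09-fold lower (1.04 to 1.15). Scaling by total counts turns its log2 ratio from −0.13 to 0.14, so no direction can be given for Il6st. Il6ra and Lifr both differed from this shared chain. Within each library, which no scaling affects, Il6ra counts per Il6st count went from 0.603 in flox to 0.390 in HKO, a 0.647-fold ratio of ratios (0.595 to 0.703). The ratio of Il6st to Lifr went from 0.603 to 0.979, which is 1.63-fold (1.53 to 1.73). Il6ra and Lifr were indistinguishable from each other, with a ratio of ratios of 1.05 (0.970 to 1.14). Gene counts do not separate soluble from membrane forms of these receptors.

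The kinase genes were slightly higher. Jak1, the main kinase of gp130 signalling, had 2285 counts for flox and 2599 for HKO, or 117 and 129 CPM, and was 1.10-fold higher (1.04 to 1.16). Jak2, which also serves growth hormone and erythropoietin receptors, had 335 and 407 counts, or 17.1 and 20.1 CPM, and was 1.17-fold higher (1.01 to 1.36). Under upper-quartile scaling both intervals reach equality. A difference between the kinases was not detectable, at a ratio of ratios of 0.936 (0.802 to 1.09). Both stood apart from Il6ra and Lifr: Lifr relative to Jak1 was 0.511 (0.476 to 0.548), and Il6ra relative to Jak1 was 0.537 (0.491 to 0.587).

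Stat3, the transcription factor that the pathway activates, had 3312 counts for flox and 2778 for HKO. These are 169 and 137 CPM, and the gene was 1.23-fold lower (1.17 to 1.30). With total counts its log2 ratio is −0.03 and the interval includes equality. Stat3 lay between Il6ra and Lifr on one side and Il6st and the kinase genes on the other. Relative to Jak1 it was lower, since Jak1 per Stat3 count went from 0.690 to 0.936 (1.36-fold, 1.26 to 1.46). Counts measure the transcript and not the phosphorylated protein on which STAT3 activity depends.

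**Figure D2:**
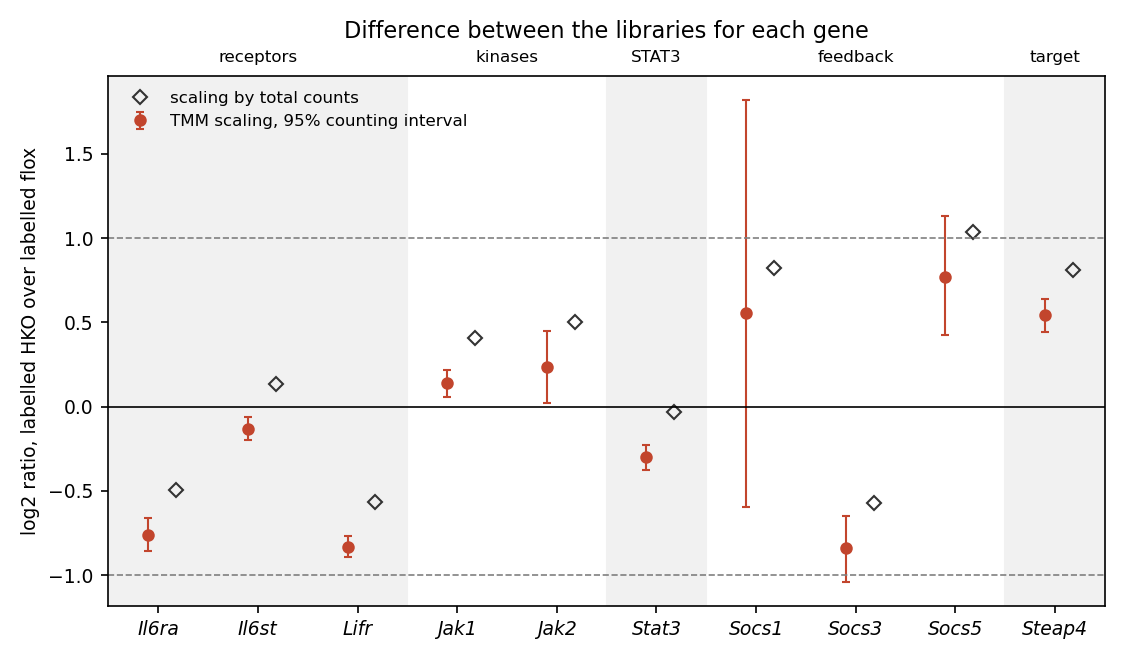
Log2 ratio, HKO over flox, for the 10 genes. Filled circles with bars are TMM-scaled ratios with 95% counting intervals, open diamonds the same ratios scaled by total counts, and dashed lines 2-fold. Il6ra, Lifr and Socs3 stay below equality and Jak1, Jak2, Socs5 and Steap4 above it with both scalings, whereas Il6st crosses it.

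The feedback genes were split. Socs3, the gp130 inhibitor and a classic STAT3 target, had 593 counts for flox and 342 for HKO, or 30.3 and 16.9 CPM. It was 1.79-fold lower (1.57 to 2.05), and 6.99% of tested genes had a lower ratio. Socs5, a family member linked to EGF receptor and interleukin-4 signalling, had 107 and 189 counts, or 5.47 and 9.35 CPM. It was 1.71-fold higher (1.34 to 2.19), and with total counts its log2 ratio of 0.77 becomes 1.04, past 2-fold. Socs1, the interferon-induced inhibitor of Janus kinases, had only 11 and 17 counts. Its ratio of 1.47 (0.661 to 3.53) was not distinguishable from equality at this depth.

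Socs3 and Socs5 thus differed in opposite directions. There were 5.54 Socs3 counts per Socs5 count for flox and 1.81 for HKO, a ratio of ratios of 0.327 (0.249 to 0.429). Socs3 was also lower relative to Stat3, since Stat3 per Socs3 count went from 5.58 to 8.12 (1.45-fold, 1.26 to 1.68). Relative to the receptor genes Il6ra and Lifr, no difference of Socs3 beyond counting error was detectable. The ratio of ratios was 1.06 (0.912 to 1.23) for Il6ra to Socs3 and 1.01 (0.876 to 1.16) for Lifr to Socs3. Socs1 was higher relative to Socs3 (2.68, 1.24 to 5.79), on few counts.

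Steap4 encodes a metalloreductase of cell membranes that interleukin-6 and STAT3 induce in hepatocytes. It had 1373 counts for flox and 2066 for HKO, or 70.2 and 102 CPM. It was 1.46-fold higher (1.36 to 1.56). The promoters of both Steap4 and Socs3 hold the TTCNNNGAA word shown above, yet Socs3 relative to Steap4 was 0.383 (0.330 to 0.445). Of the 45 pairs among the 10 genes, 34 had a ratio of ratios whose interval left out equality and 11 did not. These pairs share genes and are not independent. The share over pairs of all tested genes was not computed, so the counts are not a result about these genes in particular.

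**Figure D3:**
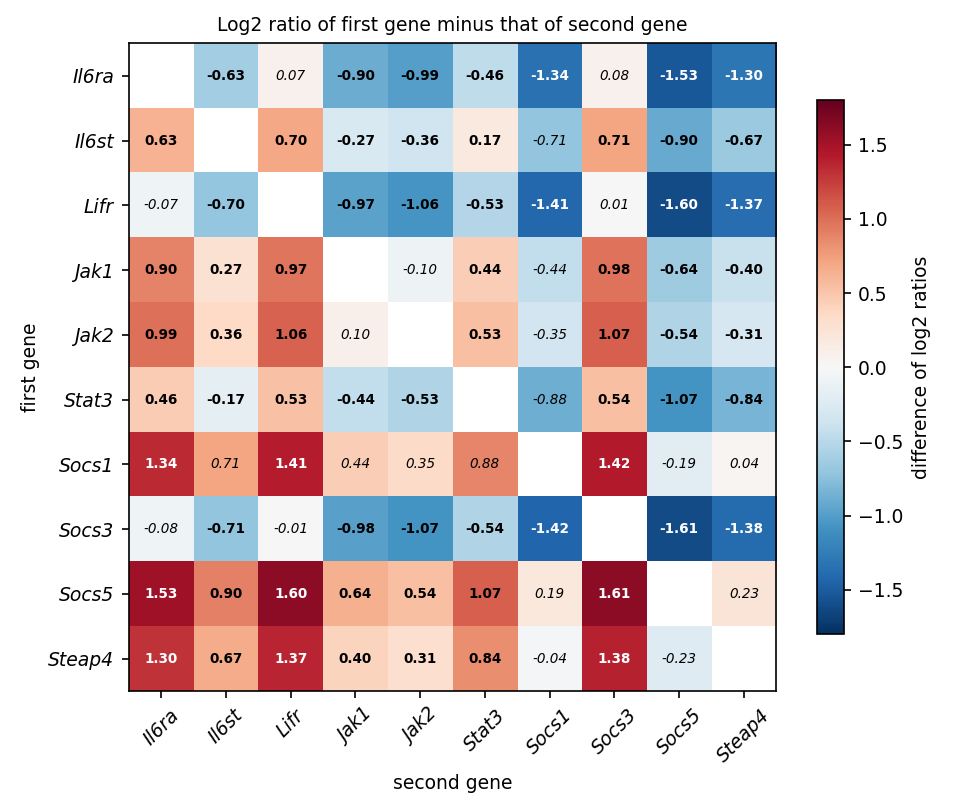
Difference between the log2 ratios of each pair of genes, row gene minus column gene, which does not depend on scaling. Red cells mean that the row gene was higher relative to the column gene in the library labelled HKO, bold numbers have a 95% counting interval that leaves out 0, and italic ones do not. Il6ra, Lifr and Socs3 form pale cells with each other, and Socs5 against Lifr or Socs3 gives the darkest cells.

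Levels of different genes were compared per length, as TPM (a count divided by exonic length and scaled to a fixed library sum) within a library. In the library labelled flox the order was Lifr at 64.2 TPM, Steap4 at 50.6, Stat3 at 40.4, Il6st at 37.6, Jak1 at 36.7, Il6ra at 29.1, Socs3 at 23.8, Jak2 at 7.74, Socs5 at 1.94 and Socs1 at 0.440. Of the neighbours in that order, only Il6st and Jak1 had overlapping counting intervals. In the library labelled HKO the order was Steap4 at 91.6 TPM, Jak1 at 50.3, Lifr at 44.9, Il6st at 42.7, Stat3 at 40.8, Il6ra at 21.4, Socs3 at 16.5, Jak2 at 11.3, Socs5 at 4.12 and Socs1 at 0.818. There the intervals of Lifr and Il6st overlapped, as did those of Il6st and Stat3. The order rests on lengths that join all exons of a gene. With the length of the principal coding transcript instead, an alternative chosen after the data were seen, Stat3 stood first in flox at 733 counts per kilobase, above Il6ra at 647 and Lifr at 616, and Steap4 stood first in HKO at 655. Il6ra to Il6st turned from 0.774 and 0.501 by TPM to a log2 ratio of 0.65 in flox and 0.018 in HKO, so no order between these receptor chains can be given. Socs3, Jak2, Socs5 and Socs1 filled the lowest 4 places in this order in both libraries with either length.

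The other genes of the pathway were measured from lists of ligands, receptors, kinases, STAT factors and inhibitors. Ligand transcripts were scarce in whole liver. Il6 had 3 counts in each library. Of 9 ligand genes only Ctf1, which encodes cardiotrophin-1, had enough counts to be compared, at 125 and 141 counts (1.09-fold, 0.852 to 1.40). Lif had 0 and 6 counts, Osm 0 and 1, Il11 1 and 0, Clcf1 2 and 1, Ebi3 4 and 1, and Il27 4 and 5. Cntf had 0 and 7, but 78.9% of the exonic bases of Cntf lie in another gene.

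Of 7 receptor genes 1 had an interval above equality (28.3% of all genes) and 4 below (27.7%). None was past 2-fold, against 5.74% of all genes higher and 4.66% lower. The list median of −0.21 becomes 0.05 with total counts. Osmr, the oncostatin M receptor, was the one above, at 56 and 84 counts (1.45-fold, 1.02 to 2.07). Il11ra1, the interleukin-11 receptor, was 1.16-fold lower (1.04 to 1.28), though 29.1% of its sequence also occurs elsewhere among annotated genes. Scaled by total counts it was at 36.4 and 37.8 CPM, so no direction can be given for Il11ra1. Of the 4 Janus kinases, Tyk2 was the only one below equality (27.7% of all genes). It had 807 and 587 counts and was 1.42-fold lower (1.28 to 1.58), and 8.07% of its exonic bases lie in another gene. Jak3, the kinase of lymphoid cytokine receptors, had 488 and 524 counts, 1.04-fold (0.916 to 1.18).

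Of 6 measured STAT genes, Stat3 and Stat5b were below equality (27.7% of all genes). None was past 2-fold, and the median of −0.04 becomes 0.23 with total counts. Stat5b, which relays growth hormone signals in liver, had 1845 and 1570 counts and was 1.21-fold lower (1.14 to 1.30). Scaled by total counts it was nearly level, at 86.0 and 85.1 CPM. Stat6, which serves interleukin-4, had 1620 and 1577 counts, with an interval that included equality. After TMM scaling the STAT genes thus stayed within a narrow band, with Stat3 and Stat5b at its lower end and their counting intervals overlapping.

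The SOCS family held larger differences than the 3 genes above. Of 8 measured members 5 had an interval above equality, against 28.3% of all genes, and Socs3 alone had one below, against 27.7%. Socs6 and Cish were past 2-fold higher, as were 5.74% of all genes. Socs6, which is linked to insulin receptor and KIT signalling, had 314 and 832 counts and was 2.56-fold higher (2.25 to 2.93). Other genes hold 4.35% of the words of 100 bases in Socs6. Cish, a STAT5 target that restrains growth hormone and prolactin receptors, had 132 and 325 counts and was 2.38-fold higher (1.94 to 2.94). Other annotated genes cover 11.5% of the exonic bases of Cish. The family median was 0.54 (0.81 with total counts), against 0.0097 over all tested genes (0.28 with total counts), and its range ran from −0.84 for Socs3 to 1.36 for Socs6. Socs2, another STAT5 target, was 1.22-fold higher (1018 and 1285 counts, 1.12 to 1.33), Socs4 1.44-fold higher (398 and 592, 1.26 to 1.64), and Socs7 had a ratio of 0.938 (0.846 to 1.04).

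Of 10 other brakes and proteases that shed receptors, 6 had an interval above equality (28.3% of all genes) and 1 below (27.7%). None was past 2-fold, and the median of 0.21 becomes 0.47 with total counts. Ptpn2, which encodes a phosphatase of Janus kinases and STAT factors, had the largest difference of the list, with 174 and 306 counts, and was 1.70-fold higher (1.41 to 2.06). Ptpn11, which encodes the phosphatase SHP2, had 2156 and 2049 counts and was 1.09-fold lower (1.02 to 1.16). Scaled by total counts it was at 100 and 111 CPM, so no direction can be given for Ptpn11. Adam10 and Adam17, whose products cleave the interleukin-6 receptor from cells, were 1.36-fold (1.22 to 1.51) and 1.39-fold higher (1.22 to 1.59). Ptpn1, a phosphatase of Janus kinases, had 658 and 660 counts.

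Genes known as STAT3 targets in liver were on both sides of equality. Of 28 listed, 27 were measured. Of these 17 had an interval above equality (28.3% of all genes) and 10 below (27.7%), 2 were past 2-fold higher (5.74%) and none was past 2-fold lower (4.66%). Their median of 0.36 becomes 0.63 with total counts. Of the 10 below, Fgg, Itih4, Lbp, Serpina3n and Pim1 turn higher with total counts, and Socs3, Fga, Fgb, Orm1 and Cebpb stay lower. Hamp, the iron hormone hepcidin, was 2.27-fold higher (6226 and 14587 counts, 2.20 to 2.33), and Lcn2, a siderophore-binding defence protein, was 2.30-fold higher (145 and 345, 1.89 to 2.81). The members of this list that stood lower were led by Socs3. The list holds Socs3 and Steap4 themselves, and 1 of its genes, Junb, is also an immediate early gene.

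The TTCNNNGAA word was found in 7 of the 27 promoter windows of these targets, or 25.9%. Among windows of all genes with at least 20 counts the share was 6.97%. It is shown for 6 of them with up to 10 bases on each side, matches in capitals, all from RefSeq on GRCm38.p6, so that the letters can be set beside the ratios. Those of Cish, from the SOCS family, are added because it holds a pair of matches just inside the transcript.
Socs3, chromosome 11: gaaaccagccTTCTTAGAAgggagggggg
Steap4, chromosome 5: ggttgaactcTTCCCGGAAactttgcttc
Fga, chromosome 3: aggcccccatTTCCTGGAAtgtagattcc
Fgb, chromosome 3: gactcaatgaTTCGAGGAAccccctgtgt
Apcs, chromosome 1: atcttcTTCTAGGAAagcacagggt
Itih4, chromosome 14: aaacctgcatTTCCGAGAActtgcaccag
Cish first match, chromosome 9: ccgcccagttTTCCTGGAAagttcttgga
Cish second match, chromosome 9: tcctggaaagTTCTTGGAAatctgtcaaa
The 7 targets with a match did not share a direction. After TMM scaling 3 ratios were above equality and 4 below it, from −0.84 to 1.18 on the log2 scale. Of those shown, the log2 ratios were −0.84 for Socs3, −0.33 for the fibrinogen genes Fga and Fgb, −0.21 for Itih4, 0.54 for Steap4 and 0.98 for the pentraxin gene Apcs. The median was −0.21 for the 7 measured targets with a match and 0.36 for the 20 without. The −0.21 is the ratio of Itih4, which turns higher when scaled by total counts, at 2625 and 2725 CPM. Fga, Fgb, Itih4, Steap4 and Apcs all had at least 3000 counts in sum, a class with 60.9% of all genes below equality and 26.4% above. Whether the word goes with the ratio was not tested.

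**Figure D4:**
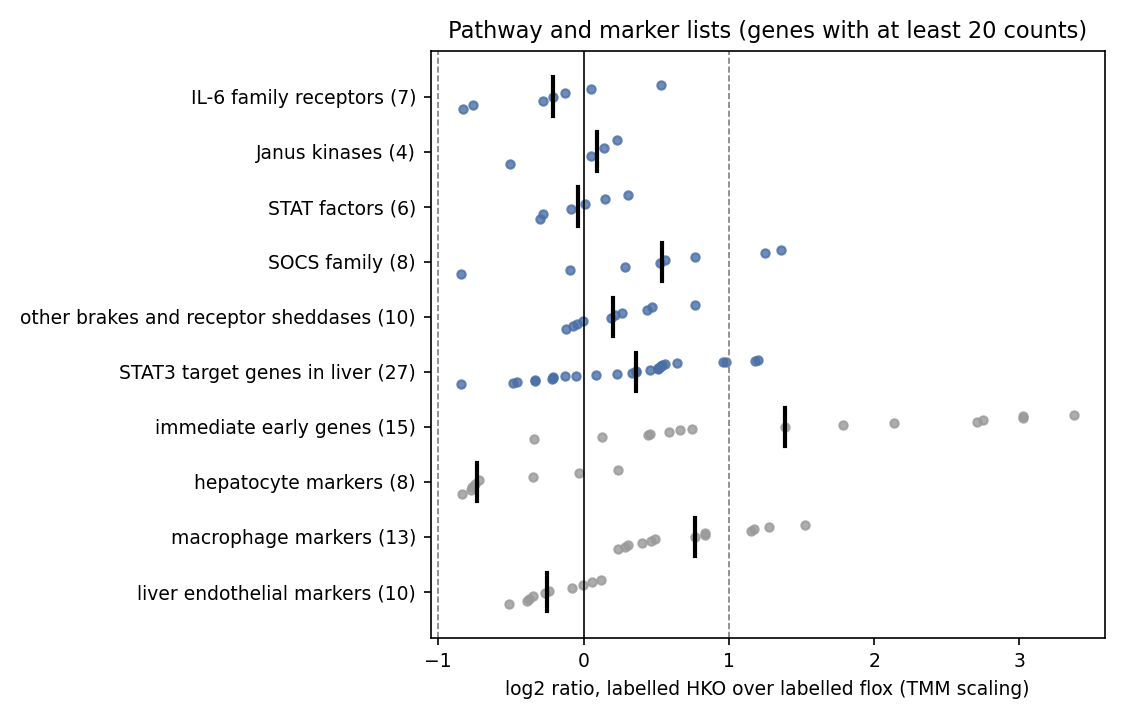
Log2 ratio of each measured gene in 10 lists, with the number measured in brackets, the list median as a black bar and 2-fold as dashed lines. Blue points are pathway lists and grey points immediate early genes and cell type markers. The SOCS family and STAT3 targets spread on both sides of 0, and hepatocyte markers lie mostly left of it and macrophage markers all right of it.

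Cell type markers differed between the libraries as well. In whole liver, fewer cells of a type and less RNA per cell cannot be told apart. Of 8 hepatocyte markers 7 had an interval below equality (27.7% of all genes) and 1 above (28.3%). All 8 had at least 3000 counts in sum, a class with 60.9% of all genes below equality. Their median log2 ratio of −0.73 becomes −0.46 with total counts. Their summed level was 110700 and 73549 TMM-scaled CPM in flox and HKO, of which Alb made 74634 and 43822. The log2 ratios of Lifr (−0.83), Il6ra (−0.76) and Socs3 (−0.84) were similar in size to the median of the hepatocyte markers. Single hepatocyte markers ran from −0.84 for Tat to 0.24 for Apob, with Ttr at −0.34 and Apoa1 at −0.03. Of 13 macrophage markers all 13 were above equality (28.3% of all genes), with summed levels of 543 and 825 CPM. Cd68, Marco, Vsig4 and Mpeg1 were past 2-fold higher, by 2.22-fold to 2.87-fold, as were 5.74% of all genes. None of the 13 was at 0, and single markers ranged from 6.19 to 116 in flox and from 10.5 to 141 in HKO. Of 10 endothelial markers 6 were below equality (27.7% of all genes) and none above (28.3%). Their sums were 570 and 470, and their median of −0.25 becomes 0.016 with total counts.

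Blood cell markers had few counts. The 7 neutrophil markers summed to 3.02 and 4.20 CPM, with Ly6g, Mpo and Elane at 0 in both libraries. The 8 T and NK cell markers summed to 2.50 and 3.71, and the 7 B and plasma cell markers to 11.0 and 19.3. Among them Gzma (3 and 18 counts) and Igha (81 and 185 counts) were past 2-fold higher, as were 5.74% of all genes. Stellate cell markers summed to 512 and 588 over 9 genes, but Lrat was 2.14-fold higher (1.86 to 2.46) and Des 2.39-fold lower (1.99 to 2.90). Bile duct markers summed to 76.0 and 66.5 over 6 genes, with Krt19 4.57-fold lower (3.86 to 5.46), Krt7 2.70-fold lower (1.86 to 4.06) and Sox9 4.14-fold higher (3.31 to 5.26). The markers of these cell types thus differed in opposite directions. The part of any cell type in the differences of the 10 genes was not tested.

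Immediate early genes, which respond within minutes to cytokines, growth factors and stress, were higher in the library labelled HKO. Of 15 such genes 13 had an interval above equality (28.3% of all genes), 8 were past 2-fold higher (5.74%) and none was past 2-fold lower (4.66%). Their median was 1.38, or 1.65 with total counts. The 8 were Fosb, Jun, Egr1, Egr2, Atf3, Btg2, Myc and Klf6, and Atf3 stood highest at 10.4-fold (502 and 5394 counts, 9.48 to 11.4). Socs3, an early response gene of cytokine signalling, was on the other side. Dusp1 was the only gene of the list below equality, 1.27-fold lower (4154 and 3391 counts, 1.21 to 1.33). The part of this early response in the differences of the 10 genes was not tested.

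The transcripts of the 10 genes were also read for GGACT, the core word at which METTL3 most often acts, and for ATTTA, a word of unstable messages, on the sense strand of the principal coding transcript. GGACT occurred at a median of 0.845 per kilobase of transcript in the 10 genes and 1.06 in 12678 tested coding genes. Il6ra had the highest density of the 10, with 6 words in 3343 bases (1.79 per kilobase), and Il6st held 10 words, all of them in its 3′ untranslated region. Steap4 held none, as did 7.55% of tested coding genes, and Stat3 held 1. Socs3 held 3 and Socs5 held 4. These word counts do not measure RNA methylation. The paper's list of genes with methylation peaks in Mettl3 flox/flox livers includes Steap4, Il6ra, Il6st, Jak1 and Jak2. Steap4 is thus on that list although its principal transcript lacks the word. ATTTA occurred at a median of 1.57 per kilobase of 3′ untranslated region against 1.34 in 12020 tested genes, with 4 words each in Socs3, Socs5 and Jak1, 11 in Lifr and none in Socs1.

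The annotation puts Il6ra (ENSMUSG00000027947) on chromosome 3 (89864059 to 89913196), Il6st (ENSMUSG00000021756) on 13 (112464070 to 112510086), Lifr (ENSMUSG00000054263) on 15 (7090614 to 7197489), Jak1 (ENSMUSG00000028530) on 4 (101152367 to 101265282) and Jak2 (ENSMUSG00000024789) on 19 (29251828 to 29313080) of GRCm38. Stat3 (ENSMUSG00000004040) lies on chromosome 11 (100885098 to 100939540) and Socs3 (ENSMUSG00000053113) on the same chromosome (117966079 to 117970047). Socs1 (ENSMUSG00000038037) lies on 16 (10782240 to 10785536), Socs5 (ENSMUSG00000037104) on 17 (87107679 to 87137839) and Steap4 (ENSMUSG00000012428) on 5 (7960457 to 7982213). Overlap with other genes was small, at 2.80% of exonic bases for Il6ra, 0.756% for Stat3 and 0.0554% for Jak1, and 0 for the other 7. Only Il6ra shared any sequence with other genes, 1.67% of its words of 100 bases.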

How the data were processed

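The deposited values are raw counts per gene that the authors made from paired-end reads, and material of 4 mice was pooled per library. The submitters' processing notes name TopHat2, GRCm38 and HTSeq 0.6.1, whereas the methods name Hisat2 2.0.4 and HTSeq 0.9.1. The counts do not show which set was used. No molecular tags are described, so PCR copies count as reads, and the strand setting is not stated. Names and positions came from GENCODE M21 (GRCm38), which matched 52489 of 52636 identifiers. Another 311 unannotated loci, with 0.328% and 0.261% of counts in flox and HKO, were left out.

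Scaling used TMM factors from edgeR 4.0.16, with a prior of 0.5 counts added in both libraries for log2 and fold values. DESeq2 1.42.0 gave size factors for an alternative. The interval of a ratio is the exact binomial (Clopper-Pearson) 95% interval of the share of counts in one library. That of a ratio of ratios uses a normal approximation on the log scale, without scaling or prior. A gene was measured with at least 20 counts in sum, and past 2-fold when the interval also left out equality. TPM used the joined exonic length of all transcripts of a gene, and its intervals are exact Poisson ones. The steps were tested on simulated data before use.

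The members and lists were chosen with earlier results of these data known. All 10 members were named. Of the pathway lists, genes past 2-fold or up to 3 by count were named, besides genes added after their values were seen (Osmr, Il11ra1, Socs2, Socs4, Socs7, Ptpn2, Adam17, Dusp1, Alb, marker genes past 2-fold, ligands with few counts) and those with a promoter match. A few items are not reported here. Alternatives changed the scaling, prior, depth, count floor and fold limit. Python 3.11.15, NumPy 2.4.6, pandas 2.3.3, SciPy 1.17.1, matplotlib 3.10.9 and R 4.3.3 were used.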

Additional observations from a re-analysis of the deposited data

How the results depend on the processing

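The number of the 10 genes past 2-fold higher was 0 and past 2-fold lower 0. It became 1 higher (Socs5) with scaling by total counts, and 1 higher (Socs5) and 3 lower (Il6ra, Lifr and Socs3) with a fold limit of 1.5 after TMM scaling. With total counts Il6ra, Lifr and Socs3 fall short of 1.5-fold, and Steap4 passes it as well as Socs5. Intervals above equality, 4 in the main setting, became 2 (Socs5 and Steap4) under upper-quartile scaling. Intervals below equality, 5 in the main setting, became 3 (Il6ra, Lifr and Socs3) with total counts. Over all tested genes 828 were past 2-fold higher and 672 lower, and 1504 and 409 with total counts. Scaling by total counts moves every log2 ratio up by 0.27 by construction. Among the 10 genes it alone reversed a ratio, that of Il6st, to 0.14. Of 50 member ratios recomputed under 5 other scalings, priors or depths, 39 stayed inside the counting interval of the main value and 10 moved outside it in the same direction. With the deeper library thinned, the interval of Jak2 included equality, leaving 3 above. With the length of the principal transcript, chosen after seeing the data, Il6ra over Il6st per length turned from −0.37 to 0.65 (log2) in flox, and to 0.018 in HKO. Count floors, a larger prior and DESeq2 size factors changed none of the counts among the 10 genes. Over all tested genes they did change them, for example to 878 higher and 635 lower with DESeq2 size factors. With 1 pooled library per genotype no replicate could be left out and no variation between mice is measured. The 11 and 17 counts of Socs1 leave any ratio from 0.661 to 3.53 possible.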
